A study of Homo sapiens with 6 samples.

Results

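The superoxide and peroxide scavengers are the enzymes that remove superoxide and hydrogen peroxide from the cell. The set was chosen by name and holds 10 genes: the superoxide dismutases SOD1 and SOD2, the catalase gene CAT, the peroxiredoxins PRDX1 to PRDX6 and the glutathione peroxidase GPX1. They are 10 of the 58735 genes in the count table, in which 11 rows carry one of these names because SOD2 is listed under 2 identifiers. Their mRNA was measured by RNA-seq in parent MDA-MB-231 cells, a wild-type triple-negative breast cancer (TNBC) cell line, and in ADRr cells, made from that line by stepwise exposure to rising doses of adriamycin (ADR, doxorubicin). Each group had 3 libraries, and both lines were grown in DMEM with serum. The ADRr line was isolated by limiting dilution as single clones, so the group may stand for 1 clone. The sources do not give the dose of ADR, if any, at harvest. The series record mentions 3 time points that the labels do not name, and nothing says that the libraries of a group came from separate cultures. The p-values therefore measure only the spread between these libraries, which may be technical.

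Superoxide is a one-electron product of oxygen that arises in the respiratory chain, at NADPH oxidases and from redox cycling drugs such as doxorubicin. Superoxide dismutases turn it into hydrogen peroxide, SOD1 mainly in the cytosol and SOD2 in the mitochondrial matrix. Hydrogen peroxide is then reduced to water by catalase in the peroxisome, by glutathione peroxidases with glutathione, and by peroxiredoxins, most of them with thioredoxin. PRDX1 and PRDX2 are cytosolic, PRDX3 is mitochondrial, PRDX4 lies in the endoplasmic reticulum, PRDX5 is found in mitochondria, peroxisomes and cytosol, and PRDX6 is cytosolic and uses glutathione.

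All 6 peroxiredoxins attack peroxide with a cysteine, and GPX1 does so with selenocysteine, which is encoded by a TGA codon that otherwise stops translation. The coding sequences below, from the principal GENCODE 29 transcripts on GRCh38, show these sites because they set the family members apart. Each peroxiredoxin line ends with the codon of the peroxidatic cysteine in capitals, and the GPX1 line holds its TGA codon, codon 49, in capitals.
PRDX1: cctcttgacttcacctttgtgTGC
PRDX2: cctctggacttcacttttgtgTGC
PRDX3: cctttggatttcacctttgtgTGT
PRDX4: ccacttgatttcacatttgtgTGT
PRDX5: cctggggccttcacccctggaTGT
PRDX6: cctcgggactttaccccagtgTGC
GPX1: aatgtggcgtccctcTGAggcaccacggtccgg
The cysteine is codon 52 in PRDX1, codon 51 in PRDX2, codon 108 in PRDX3, codon 124 in PRDX4, codon 100 in PRDX5 and codon 47 in PRDX6. PRDX1 and PRDX2 were the most alike of the pairs aligned, with 73.2% of aligned coding bases identical and a longest shared run of 14 bases. PRDX1 and PRDX4 shared the longest run, of 17 bases. The count table gives GPX1 the biotype of a polymorphic pseudogene, although the gene is known to encode the enzyme.

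The libraries held 15983985 to 18272314 counts, of which the 10 genes took 0.174 to 0.189%. Levels of single genes below are CPM, counts scaled to the size of the library and by its TMM factor (0.987 to 1.01). The 3-count floor and the sums of markers and receptors in this paragraph are CPM by library size alone. A gene without a read could still have had 3 counts, which is 0.164 to 0.188 CPM here, with counting error alone considered. The 5 markers of the line (VIM, CD44, AXL, CAV1 and KRT18) summed to 4187 to 4331 CPM in parent cells and 3495 to 3543 CPM in ADRr cells. They did not move together: CD44 was called higher in ADRr cells (log2 fold change 0.80) and the other 4 lower (-0.56 to -1.30). Of the receptors that TNBC lacks or holds at low levels, PGR was at 0 and ESR1 at no more than 1 count in every library. With ERBB2 added, the 3 receptors summed to 112 to 129 CPM in parent libraries and 49.6 to 54.4 CPM in ADRr libraries. The 6 markers of leukocytes and endothelium together reached 1.10 CPM at most, with TYROBP at 0 in every library.

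Of the 10 scavenger genes, 2 rose (SOD2 and PRDX5), 4 fell (CAT, GPX1, PRDX1 and PRDX2) and 4 were not called (SOD1, PRDX3, PRDX4 and PRDX6). A call needed an adjusted p of at most 0.05 in edgeR's quasi-likelihood test and a fold change of at least 1.2, which is 0.263 on the log2 scale. All 10 passed the filter on low counts. Among the 15242 genes tested, 29.2% were called higher and 29.6% were called lower in ADRr cells, and the counts of 2 and 4 are to be read against those shares. All ADRr libraries exceeded all parent libraries for 3 of the genes and lay beneath them for 5, while the groups overlapped for SOD1 and PRDX4. Over all tested genes these shares were 34.5% above and 34.7% below. The median log2 fold change was -0.12 for the 10 genes and -0.01 for all tested genes, and the median absolute change was 0.43 against 0.46. In bulk RNA a lower level may come from fewer cells that use a gene or from less of its mRNA in each cell, and these cannot be told apart.

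**Figure D1:**
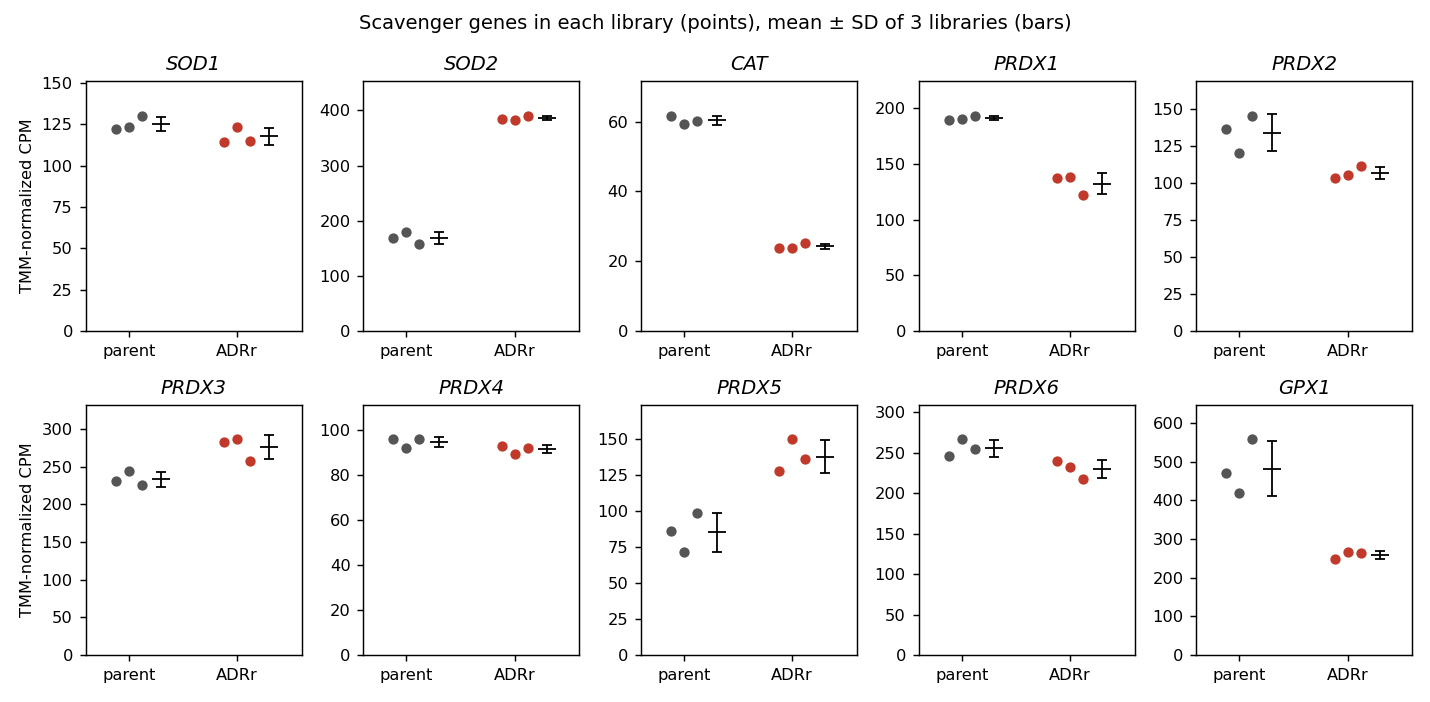
Each panel plots 1 scavenger gene as TMM-normalized CPM on a linear axis from 0, with 1 point per library (parent grey, ADRr red) and the mean ± SD of 3 libraries beside the points. SOD2 and PRDX5 lie higher in all ADRr libraries, CAT, GPX1, PRDX1 and PRDX2 lie lower, and the points of SOD1 and PRDX4 overlap between the groups.

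The superoxide dismutases diverged. SOD2 (ENSG00000112096, chr6:159669057-159745186 on the minus strand of GRCh38), the manganese enzyme of mitochondria, stood at 168, 179.7 and 157 CPM in parent libraries 1 to 3 and at 385, 382 and 391 CPM in ADRr libraries 1 to 3. The 3 ADRr libraries lay close together and far above every parent library. SOD2 rose from 168 ± 11.2 to 386 ± 4.18 CPM (SD, n = 3), a log2 fold change of 1.197 (SE 0.053, 95% interval 1.09 to 1.31, adjusted p = 6.987e-15 by edgeR), which is 2.29-fold. Of all tested genes, 13.8% had a larger absolute change.

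SOD1 (ENSG00000142168, chr21:31659622-31668931, plus strand), the copper and zinc enzyme, had 122, 123 and 130.3 CPM in the parent libraries and 114, 123 and 115 CPM in the ADRr libraries. ADRr library 2 lay within the parent range. The difference was -0.09 on the log2 scale (SE 0.056, edgeR adjusted p = 0.163), and its 95% interval ran from -0.21 to 0.03.

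Within each library the ratio of SOD2 to SOD1 does not depend on how libraries are scaled. On the scale of deposited FPKM (fragments scaled to gene length and library size) it was 0.169, 0.179 and 0.148 in parent libraries and 0.412, 0.379 and 0.415 in ADRr libraries. The ratio was thus 2.44-fold higher in ADRr cells, a log2 difference of 1.29, with no overlap. With 3 against 3 libraries the exact two-sided permutation test cannot give a p below 0.1, which is what it gave for this and for each of the other 4 ratios computed (0.1 also after adjustment over the 5).

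How SOD2 was counted limits its level per length and what its fold change covers. Its exons span 16493 bases in the annotation. The principal transcript listed is 14266 bases long, while the median coding transcript is 866 bases long. A second SOD2 row (ENSG00000285441, chr6:159679119-159762529), which runs through the same exons, shares 845 of those bases and had 0 counts in 5 libraries and 1 count in ADRr library 3, so it was not tested. Those 845 bases include 643 of the 666 coding bases (96.5%) of the principal SOD2 transcripts. If reads that touch 2 genes were left out, a setting the sources do not give, the SOD2 counts come from the 15350 exon bases that lie in no other gene. In that case the rise of SOD2 and its ratio to SOD1 describe those bases and hardly the coding part. WTAP, a gene of the other strand that shares 298 exon bases with SOD2, had a log2 fold change of -0.01 (edgeR adjusted p = 0.942). Whether the counts were made by strand is not stated.

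Catalase mRNA fell. CAT (ENSG00000121691, chr11:34438925-34472062, plus strand), which breaks down hydrogen peroxide without a reducing partner, had 61.7, 59.2 and 60.1 CPM in parent libraries 1 to 3. In ADRr libraries 1 to 3 it had 23.8, 23.8 and 25.2 CPM, all well under the lowest parent library. The mean went from 60.3 ± 1.28 to 24.3 ± 0.785 CPM (SD, n = 3), 2.48-fold lower, with a log2 fold change of -1.31 (SE 0.073, 95% interval -1.46 to -1.16, edgeR adjusted p = 3.942e-13). CAT had the largest absolute change of the 10 genes, and 11.6% of tested genes changed more.

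GPX1 (ENSG00000233276, chr3:49357171-49358600, minus strand), the main selenium-dependent peroxidase of the cytosol, fell as well. Its parent libraries held 471, 418 and 558 CPM and its ADRr libraries 247, 266 and 265 CPM. The parent libraries were spread widely, but the lowest of them still lay above the highest ADRr library. The mean fell from 482 ± 70.7 to 259 ± 10.4 CPM (SD, n = 3), 1.86-fold, with a log2 fold change of -0.90 (SE 0.072, 95% interval -1.04 to -0.75, edgeR adjusted p = 1.997e-10). GPX1P1, a processed pseudogene named after its counts were seen, which shares a run of 148 bases with GPX1, had 33, 33 and 39 counts in parent libraries and 11, 14 and 14 counts in ADRr libraries. Reads that fit both could not be assigned with certainty, but these counts are small beside the 4355 to 9817 counts of GPX1. The other 15 pseudogenes of the set had at most 8 counts in a library, and 11 of the 16 were at 0 throughout.

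The ratio of CAT to GPX1 (FPKM) was 0.0522, 0.0564 and 0.0429 in parent libraries and 0.0384, 0.0357 and 0.0379 in ADRr libraries. The log2 difference was -0.43, beside an SD of 0.15 within groups, and the groups did not overlap.

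Some of the spread between parent libraries followed base composition. GPX1 (64.2% GC in its longest transcript) and PRDX5 (61.5% GC) were the most GC-rich of the 10 genes. Parent library 3 exceeded parent library 2 by 0.41 for GPX1 and by 0.45 for PRDX5 on the log2 scale. A smooth trend of all tested genes on GC content and length predicted differences of 0.27 and 0.21. Between ADRr and parent cells the same trend was small, 0.019 to 0.062 for the 10 genes, and with it removed 2 genes still rose and 4 still fell.

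Among the 6 peroxiredoxins 1 rose, 2 fell and 3 were not called, beside 29.2% higher and 29.6% lower of all tested genes. PRDX1 (ENSG00000117450, chr1:45511036-45523047, minus strand), a cytosolic thioredoxin-dependent member, had 189.6, 190.1 and 193 CPM in parent libraries and 137, 138 and 122 CPM in ADRr libraries. All ADRr libraries lay below all parent libraries, and ADRr library 3 was the lowest. PRDX1 fell from 191 ± 2.03 to 132 ± 8.97 CPM (SD, n = 3), 1.44-fold, with a log2 fold change of -0.53 (SE 0.056, edgeR adjusted p = 2.293e-08). MMACHC, which lies on the other strand and shares 379 bases (24.9%) of the PRDX1 exons, had only 127 to 179 counts in a library and a log2 fold change of -0.28 (edgeR adjusted p = 0.0568).

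PRDX2 (ENSG00000167815, chr19:12796820-12801859, minus strand), the close cytosolic relative of PRDX1, had 136, 120.3 and 145 CPM in parent libraries and 103, 105 and 111 CPM in ADRr libraries. The groups came close but did not overlap. PRDX2 fell from 134 ± 12.7 to 107 ± 4.08 CPM (SD, n = 3), 1.26-fold, with a log2 fold change of -0.33 (SE 0.065, 95% interval -0.46 to -0.19, edgeR adjusted p = 0.000114). That interval reaches past the 1.2-fold threshold. An antisense gene, AC018761.2, shares 296 of the PRDX2 exon bases and had no counts. AP000254.1 and RF01241 at SOD1, HNRNPH1P1 and RNU4ATAC18P at SOD2 and HOOK2 at PRDX2 overlap these genes but share no exon base with them.

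PRDX5 (ENSG00000126432, chr11:64318088-64321811, plus strand) was the peroxiredoxin that rose. Its parent libraries held 86.3, 71.4 and 98.4 CPM and its ADRr libraries 128, 149.9 and 136 CPM. The spread within each group was wide, yet the lowest ADRr library stood above the highest parent library. The mean rose from 85.4 ± 13.5 to 138 ± 11.3 CPM (SD, n = 3), 1.61-fold, with a log2 fold change of 0.69 (SE 0.083, 95% interval 0.52 to 0.86, edgeR adjusted p = 1.673e-07).

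PRDX3 (ENSG00000165672, chr10:119167703-119178833, minus strand), the mitochondrial peroxiredoxin, lay just under the fold threshold. It had 231, 245 and 226 CPM in parent libraries and 284, 287 and 258 CPM in ADRr libraries, without overlap. The log2 fold change was 0.24 (SE 0.054, 95% interval 0.13 to 0.35, edgeR adjusted p = 0.000457). It passed the fold threshold with library size alone as the scaling (0.27), without parent library 2 (0.27) and without ADRr library 3 (0.29).

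PRDX6 (ENSG00000117592, chr1:173477266-173488807, plus strand), which also acts as a phospholipase, had 246, 267 and 254 CPM in parent libraries and 240.4, 232 and 218 CPM in ADRr libraries. Each ADRr library lay below each parent library, but the log2 difference of -0.15 (SE 0.053, edgeR adjusted p = 0.0157) was under the fold threshold.

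PRDX4 (ENSG00000123131, chrX:23664262-23686399, plus strand), which serves protein folding in the endoplasmic reticulum, had 95.7, 92.0 and 95.8 CPM in parent libraries and 92.9, 89.2 and 91.9 CPM in ADRr libraries. The groups overlapped. The log2 difference was -0.05 (edgeR adjusted p = 0.458), with a 95% interval from -0.17 to 0.07.

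Ratios to PRDX1 within a library set the family members apart. The ratio of PRDX3 to PRDX1 (FPKM) was 0.542, 0.574 and 0.520 in parent libraries and 0.921, 0.926 and 0.941 in ADRr libraries. It was 1.71-fold higher in ADRr cells, with an SD of 0.0515 within groups beside a log2 difference of 0.77. For PRDX4 to PRDX1 the ratio went from 0.396 ± 0.00828 to 0.553 ± 0.0438 (SD, n = 3). For PRDX2 to PRDX1 it went from 0.509 ± 0.0444 to 0.588 ± 0.0643, a log2 difference of 0.21 with an SD of 0.14 within groups. Both of those ratios were without overlap between the groups, although for PRDX2 to PRDX1 the highest parent library (0.547) and the lowest ADRr library (0.548) nearly met.

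**Figure D2:**
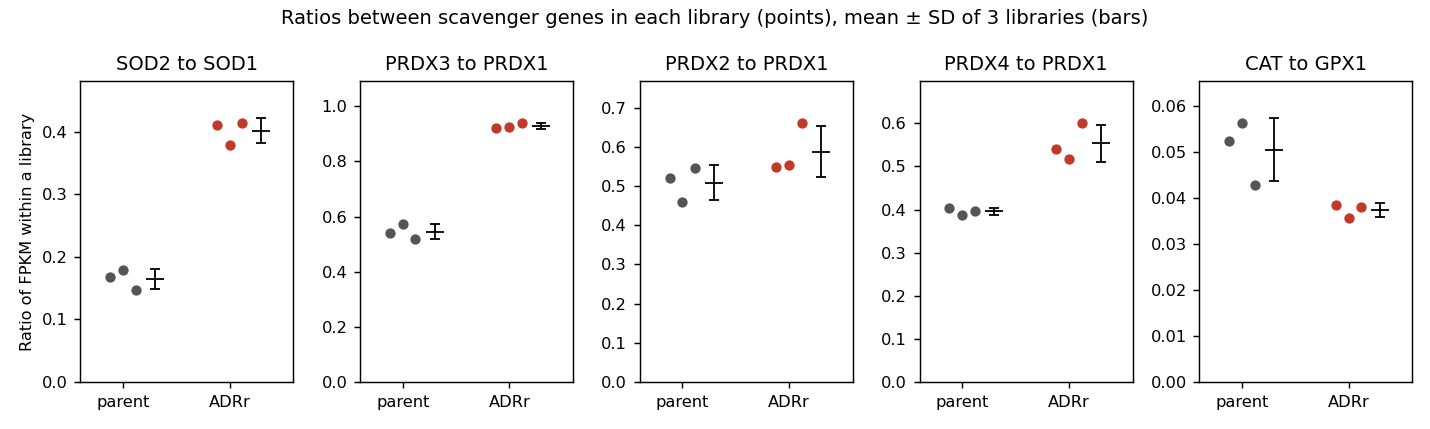
Each panel plots the ratio of the deposited FPKM of 2 scavenger genes within a library, on a linear axis from 0, with 1 point per library (parent grey, ADRr red) and the mean ± SD of 3 libraries beside them. The mean ratio of SOD2 to SOD1 went from 0.165 to 0.402 and that of PRDX3 to PRDX1 from 0.545 to 0.929, while the points of PRDX2 to PRDX1 nearly meet.

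Levels of different genes were compared per length, as deposited FPKM. In parent cells GPX1 stood highest at 330.3 ± 47.9 FPKM (SD, n = 3). PRDX1 (123), PRDX6 (106), PRDX5 (93.6), PRDX3 (67.0), PRDX2 (62.6), SOD1 (60.7), PRDX4 (48.6), CAT (16.5) and SOD2 (10.0) followed, in mean FPKM. The libraries of PRDX6 and PRDX5 overlapped, as did those of PRDX3 and PRDX2 and those of PRDX2 and SOD1, so the order of these neighbours was not beyond their spread. Except for CAT and SOD2, the genes lay above at least 94.4% of tested genes in parent FPKM.

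In ADRr cells GPX1 was still the highest at 178 ± 7.07 FPKM, but PRDX5 came second at 152 ± 12.1 FPKM (SD, n = 3). Below them stood PRDX6 (95.5), PRDX1 (85.4), PRDX3 (79.3), SOD1 (57.2), PRDX2 (50.02), PRDX4 (47.1), SOD2 (23.0) and CAT (6.65), in mean FPKM. Only the libraries of PRDX1 and PRDX3 overlapped between neighbours in this order. SOD2 and CAT changed places: the share of tested genes with a lower FPKM went from 69.2% to 86.7% for SOD2 and from 80.5% to 58.8% for CAT. FPKM is divided by the full exon span of a gene, which departs from its principal transcript by unlike amounts. The spans were 2019, 2093 and 3417 bases for SOD1, PRDX2 and PRDX3, beside principal transcripts of 966, 987 and 1591 bases. For PRDX5 both were 893 bases, and for SOD2 they were 16493 and 14266 bases. The order of genes rests on these lengths, so levels of different genes are not on equal terms. The counting limits of SOD2 given above also apply.

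**Figure D3:**
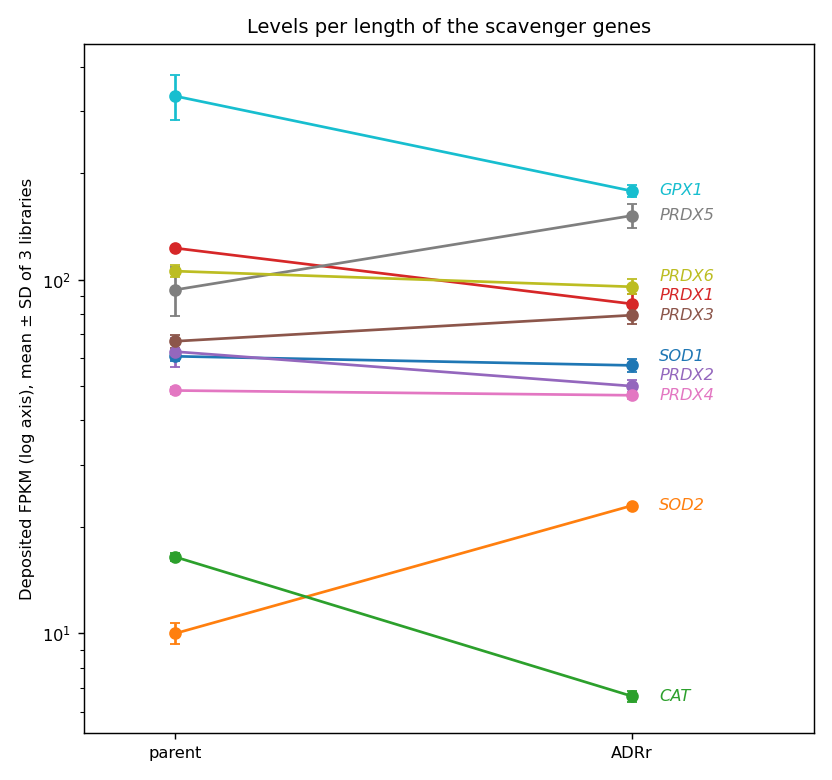
Mean deposited FPKM of each scavenger gene in parent and ADRr cells on a log axis, with bars for the SD of 3 libraries. The lines of SOD2 (10.0 to 23.0) and CAT (16.5 to 6.65) cross, PRDX5 moves from the fourth to the second place, and GPX1 stays the highest.

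The summed FPKM of the 10 genes was 908, 857 and 988 in parent libraries and 762, 798 and 763 in ADRr libraries, which is 918 ± 66.0 against 774 ± 20.6 (SD, n = 3). Without GPX1 the sums were 587.5 ± 18.1 and 596 ± 17.9 FPKM, and those of the 6 peroxiredoxins were 500.3 ± 16.9 and 509 ± 16.4 FPKM. The makeup of the sum shifted: GPX1 made up 35.9 ± 2.61% in parent and 23.0 ± 0.800% in ADRr cells, while PRDX5 went from 10.2 ± 0.915% to 19.6 ± 1.10%. These sums and shares weight genes by their mRNA per length, rest on the exon spans used as lengths, and are not enzyme activities.

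Some of the genes lie in stretches of chromosome where many genes differed the same way. For GPX1 the median log2 fold change of the 50 nearest tested genes on chromosome 3 was -0.69, near its own -0.90, with 36 of them called lower and 2 higher. For SOD2 on chromosome 6 the neighbours went the other way, with a median of -0.35 and 26 lower against 10 higher. CAT, with neighbours at a median of 0.02 on chromosome 11, also stood apart from them. SOD1 and PRDX3 were the reverse case. Their neighbours had medians of 0.66 and 0.65 (35 and 37 of 50 called higher, 3 lower in each), while SOD1 was at -0.09 and PRDX3 at 0.24. Around the other 5 genes the medians lay between -0.11 and 0.07.

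**Figure D4:**
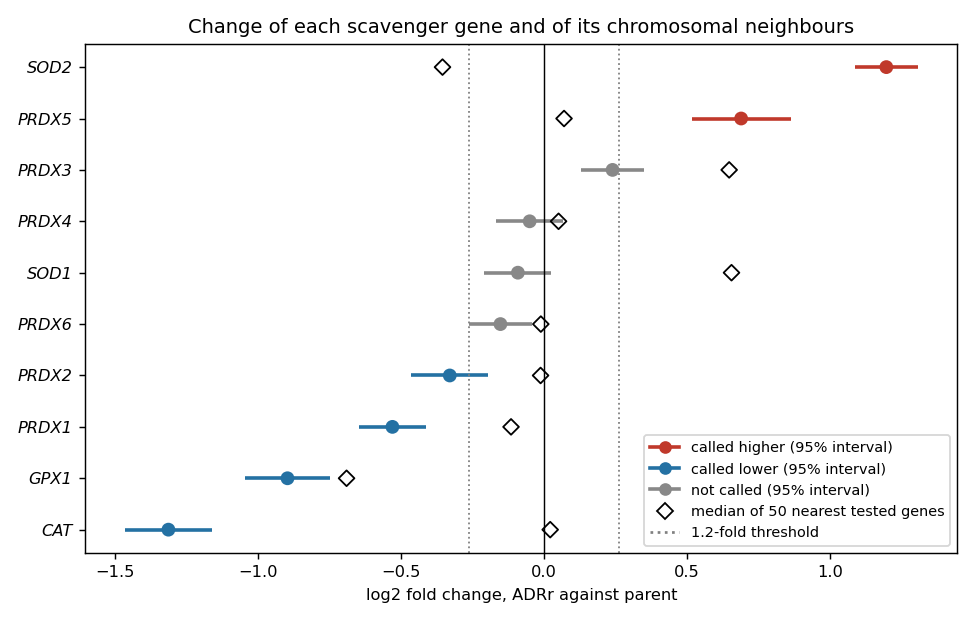
Log2 fold change of each scavenger gene in ADRr against parent cells (points, with the 95% interval as a bar, red for called higher, blue for called lower, grey for not called) and the median of the 50 nearest tested genes on its chromosome (open diamonds). Dotted lines mark the 1.2-fold threshold. The diamond lies near the gene for GPX1 and on the other side of 0 for SOD2.

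The 250 bases before a transcription start, from the RefSeq promoter table on GRCh38.p14, are shown for SOD2 and CAT, the gene that rose most and the gene that fell most. Capitals mark GC boxes (GGGCGG, either strand, overlapping matches joined), the motif bound by SP1 and its relatives. The SOD2 window is chr6:159693242-159693491 on the minus strand and the CAT window is chr11:34438684-34438933 on the plus strand.
SOD2: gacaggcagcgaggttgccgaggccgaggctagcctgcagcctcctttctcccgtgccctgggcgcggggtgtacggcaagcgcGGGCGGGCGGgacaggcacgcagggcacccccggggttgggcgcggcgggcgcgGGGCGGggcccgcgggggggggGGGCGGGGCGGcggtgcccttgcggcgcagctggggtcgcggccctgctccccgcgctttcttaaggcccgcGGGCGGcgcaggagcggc
CAT: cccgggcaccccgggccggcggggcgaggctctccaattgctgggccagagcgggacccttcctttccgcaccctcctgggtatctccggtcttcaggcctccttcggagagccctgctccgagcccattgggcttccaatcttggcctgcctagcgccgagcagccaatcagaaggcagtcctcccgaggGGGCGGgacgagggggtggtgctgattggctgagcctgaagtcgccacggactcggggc
The SOD2 stretch holds 6 GC boxes in 80.8% GC, and the CAT stretch 1 in 68.8% GC. SOD2 has 4 start windows in the table, and the one shown lies nearest to the start of the principal transcript. Windows were found for 7 of the 10 genes (11 windows), not for SOD1, PRDX1 and PRDX6. The antioxidant response element core (TGACNNNGC), the AP-1 site (TGANTCA) and the NF-κB consensus, searched on both strands of each window of 300 bases, were in 0 of the 11 windows. Shares of 13.3%, 7.71% and 5.91% of all 35116 promoters hold them. The GC box, added after those searches, was in 11 of 11 windows and in 45.0% of all promoters. It overlapped none of the other motifs, which were absent. These matches are a description of letters in a window and not of binding.

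The scavengers draw on other genes for electrons, cofactors and control. Over 8 lists of such partners, 82 of 91 genes were tested, of which 34 (41.5%) rose and 19 (23.2%) fell, beside 29.2% and 29.6% of all tested genes. The median log2 fold change of these partner genes was 0.15. The lists were written with earlier results of these data known, and the counts within each list are to be read against those shares.

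The thioredoxin system returns electrons to PRDX1, PRDX2, PRDX3 and PRDX5. Of its 11 tested genes 5 rose and 2 fell, with a median log2 fold change of 0.24. TXNIP, which binds and inhibits thioredoxin, rose from 54.8 ± 1.62 to 864 ± 19.8 CPM (SD, n = 3, log2 fold change 3.98, SE 0.054, edgeR adjusted p = 9.68e-24). SESN2, a stress-induced sestrin, rose by 2.05 on the log2 scale (edgeR adjusted p = 3.126e-16). NXN, the thioredoxin-like nucleoredoxin, and TXN2, the mitochondrial thioredoxin that serves PRDX3, fell by 0.30 each (edgeR adjusted p = 7.334e-05 and 0.00177). TXN and TXNRD1, the cytosolic thioredoxin and its reductase, were added after their values were seen. TXN rose from 267 ± 3.55 to 336 ± 10.0 CPM (log2 fold change 0.33) and TXNRD1 from 886 ± 46.6 to 1663 ± 41.6 CPM (log2 fold change 0.91). SRXN1, which repairs overoxidized peroxiredoxins and was likewise added, was at -0.12 (edgeR adjusted p = 0.491). SESN3 was not tested.

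Of the other glutathione peroxidases and the genes of glutathione supply, 5 of 12 tested rose and 4 fell (median -0.14). SLC7A11, the cystine importer, rose from 52.2 ± 6.02 to 149.7 ± 3.95 CPM (SD, n = 3, log2 fold change 1.52, SE 0.070, edgeR adjusted p = 1.359e-14). GLRX2, a mitochondrial glutaredoxin, rose by 0.75 on the log2 scale. GPX8 and GPX7, the peroxidases of the endoplasmic reticulum, had log2 fold changes of -1.35 and -1.11. Both were called lower, although GPX7 stood at only 6.17 CPM in parent cells. GPX4, which reduces lipid peroxides and was added after its value was seen, was at -0.08 (SE 0.064, edgeR adjusted p = 0.281). GPX2 was not tested.

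GPX1 needs the machinery that inserts selenocysteine at the TGA codon shown above. Of the 7 selenoprotein synthesis genes 5 rose and 0 fell, beside 29.2% and 29.6% of all tested genes, with a median of 0.58. PSTK, the kinase that phosphorylates seryl-tRNA for selenocysteine, rose from 2.85 ± 0.404 to 7.09 ± 0.499 CPM (SD, n = 3, log2 fold change 1.31, edgeR adjusted p = 1.399e-06). SEPSECS, which converts that product to selenocysteinyl-tRNA, rose by 0.90 on the log2 scale (edgeR adjusted p = 1.112e-05).

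The genes that supply NADPH were split, with 4 of 11 higher and 4 lower (median -0.06). MTHFD2, a mitochondrial folate enzyme, rose by 1.201 on the log2 scale, and PGLS, of the pentose phosphate pathway, rose by 0.82. IDH2, the mitochondrial NADP-dependent isocitrate dehydrogenase, had a log2 fold change of -1.32 (SE 0.075, edgeR adjusted p = 5.931e-13), from 58.4 ± 2.78 to 23.5 ± 0.403 CPM (SD, n = 3). TKT was lower, with a log2 fold change of -0.61.

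Of 20 genes whose products make superoxide or peroxide, 13 were tested, 3 rose and 5 fell (median -0.21). POR, which passes electrons from NADPH to cytochromes P450, rose from 45.5 ± 5.71 to 67.6 ± 1.96 CPM (SD, n = 3, log2 fold change 0.57, edgeR adjusted p = 1.193e-06). MAOB, a monoamine oxidase that releases hydrogen peroxide, went from 11.4 ± 1.203 to 1.86 ± 0.145 CPM (log2 fold change -2.61, edgeR adjusted p = 9.91e-12). NOX5 had a log2 fold change of -1.23 at 4.57 CPM in parent cells.

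Catalase reaches the peroxisome through the PEX import machinery. Of its 12 genes 3 rose and 4 fell, with a median of -0.15. PEX10 and PEX16 rose by 0.52 and 0.48 on the log2 scale, and PEX2 and PEX6 had log2 fold changes of -0.52 and -0.50.

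For superoxide dismutases the partner list held SOD3, the copper chaperones CCS and ATOX1 and the copper importer SLC31A1. SLC31A1 and ATOX1 rose by 0.50 and 0.49 on the log2 scale (edgeR adjusted p = 1.125e-07 and 3.258e-06). CCS, which loads copper into SOD1, and SOD3, the extracellular enzyme, were added after their values were seen and were not called. Their log2 fold changes were -0.14 and -0.06 (edgeR adjusted p = 0.236 and 0.77).

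Among 12 regulators of scavenger genes 7 rose and 0 fell, beside 29.2% and 29.6% of all tested genes, with a median of 0.44. NFE2L2, which encodes the factor NRF2, rose from 133 ± 9.82 to 216 ± 7.07 CPM (SD, n = 3, log2 fold change 0.71, SE 0.058, edgeR adjusted p = 3.114e-10). KEAP1, which holds NRF2 back, was at -0.08 (SE 0.065, edgeR adjusted p = 0.291). BACH1, a repressor at the same DNA element, rose by 1.21 (SE 0.066) and MAFG, a small MAF partner of both, by 1.15 (SE 0.057). The activity of these factors was not measured.

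**Figure D5:**
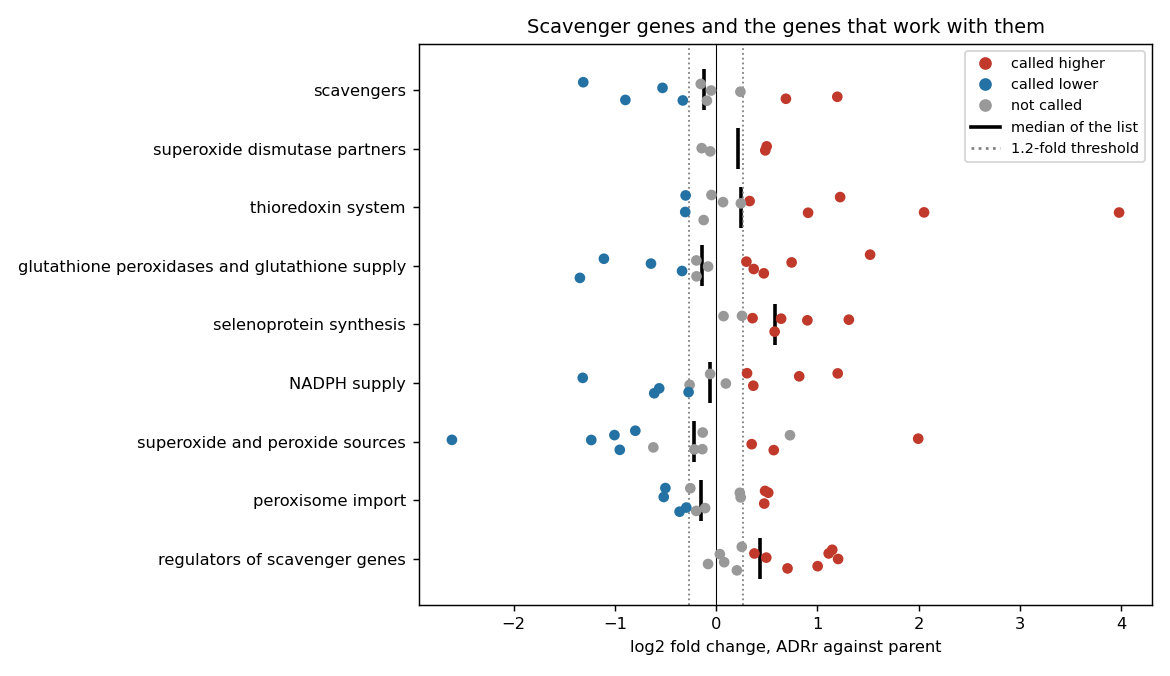
Log2 fold change in ADRr against parent cells (horizontal axis) of every tested scavenger gene and of the tested genes of the 8 partner lists (rows), with 1 point per gene, red for called higher, blue for called lower and grey for not called. Black bars mark the median of a list and dotted lines the 1.2-fold threshold. The regulators and the selenoprotein synthesis genes hold no blue points, and the scavengers lie on both sides of 0.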

How the data were processed

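The authors selected polyadenylated RNA, sequenced it on an Illumina NovaSeq from both ends, mapped the reads and counted them per gene. Their processing notes name fastp, HISAT2 2.0.5, featureCounts 1.5.0-p3, DESeq2 1.20.0 and GRCh38. Study and sample records differ in the library kit and the amount of RNA. The authors deposited whole-number counts without normalization and FPKM values made from them. Both tables also list genes from GENCODE 29: 58724 of 58735 have the same start and end. The FPKM denominator was 0.905 to 1.24% above the total count in parent and 1.90 to 3.10% above it in ADRr libraries.

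Counts of the 15242 genes kept by filterByExpr were scaled by TMM (factors 0.987 to 1.01) and tested in R 4.3.3 with edgeR 4.0.16 (quasi-likelihood test, Benjamini-Hochberg adjustment over all tested genes). Standard errors were derived from the log2 fold change and its F value. Alternatives used limma 3.58.1 (limma-trend on log2(FPKM + 1) or log2(FPKM + 0.1)) and DESeq2 1.42.0, other scalings, filters and thresholds, a block for the replicate number and each library left out. A smooth GC and length trend was added after seeing the data. The main edgeR fit, DESeq2, limma-trend on log2(FPKM + 1) and edgeR with a replicate block were tested on simulated data. The other alternatives were not. Libraries of a group differed beyond sampling noise (chi-square per degree of freedom 2.60 to 8.41), so all 6 were kept. Sequences came from GENCODE 29 and the RefSeq promoter table, and protein sequences were not used here.

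By rule, the genes named beside the 10 were those called with the 2 strongest rises and the 2 strongest falls per list, every annotated gene that overlaps one of the 10, NFE2L2 and KEAP1. The genes, lists and rule were chosen with earlier results of these data known. TXN, TXNRD1, SRXN1, GPX4, CCS, SOD3 and GPX1P1 fall outside that rule and were added after their values were seen. A gene that the rule selects is not reported here.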

Additional observations from a re-analysis of the deposited data

How the results depend on the processing

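With the threshold set at 1.2 on the log2 scale, 0 of the 10 scavenger genes rose and 1 (CAT) fell, with SOD2 just under it. The genes called higher were then 1114 and the genes called lower 972, with 8 partner genes called higher and 4 partner genes called lower. The adjusted p alone gave 3 higher and 5 lower scavenger genes, and glmTreat against 1.2-fold gave 2 and 3. The summed FPKM of the 10 genes differed by -0.25 on the log2 scale, and by 0.021 without GPX1. Of 606 values of 38 named genes over 16 settings of scaling, filter, tool, block and left-out library, 599 kept their call. A change of sign was counted only where the main or the other fit called the gene, and 0 were found. The 38 were the 10 scavenger genes, the genes picked per list, NFE2L2 and KEAP1. The genes picked per list had been called with the largest changes by the main fit on these libraries. They were therefore likely to keep their call, and their share in the 599 is no independent support. Genes that overlap a scavenger gene and genes added after their values were seen were not among them. The adjusted p alone crossed 0.05 without a change of call for SOD1 and PRDX4 with the GC and length trend removed (0.00563 and 0.0473), for PRDX6 (up to 0.108 without ADRr replicate 3, and above 0.05 with limma-trend on unfiltered FPKM) and for the log2 fold change of KEAP1 (0.0181 without parent replicate 2). The 7 values with another call were those of PRDX3, given above, TXN2 (-0.26 without parent replicate 2, -0.25 without ADRr replicate 1), NXN (-0.24 with the GC and length trend removed) and NOX5 (-0.24 with limma-trend on unfiltered FPKM). The cause was not tested. Within lists, glmTreat left 2 NADPH supply genes higher, 2 import genes lower and 0 thioredoxin genes lower, and limma-trend on FPKM left 3 source genes lower. Without parent replicate 2, 1 superoxide dismutase partner fell. With a replicate block the counts were 2 and 4 scavenger genes, 34 and 19 partner genes and 4406 and 4464 of all genes. Same-numbered libraries did not deviate together more than others (correlations -0.062 to 0.010, beside -0.037 to 0.087 for different numbers). With 3 libraries per group this cannot exclude that the numbers pair libraries. Medians of neighbours depended on how many were taken. With 25 in place of 50, CAT's moved from 0.02 to 0.23 and PRDX2's from -0.01 to 0.18. PRDX6's went from -0.01 to 0.11 with 25 and to 0.04 with 100. PRDX5's went from 0.07 to -0.02 with 100. Those of GPX1, SOD2, SOD1, PRDX3, PRDX1 and PRDX4 kept their sign with 25 and with 100. Counts per library bound the precision: CAT, the lowest of the genes, had 390 to 1056 counts.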
